A study of Mus musculus with 16 samples.

Results

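The binding sites of Oct4 and of Oct4defSox2 were compared at day 5 of reprogramming. The comparison rests on 2 ChIP-seq libraries, read as peak summits, a summit being the base at which a peak is highest. On chromosomes 1 to 19, X and Y the Oct4 library had 4846 summits and the Oct4defSox2 library 1034, together 5880 of the 226962 summits that the 13 ChIP libraries of the series hold there. A site was called shared when the lists had summits within 100 bp of each other, and the pairing was repeated with equal numbers of top-ranked summits. Both libraries came from OG2 MEFs, fibroblasts of mouse embryos with GFP under the Oct4 promoter. All cells received pMX retroviruses for Sox2 and Klf4 (SK), and with them either wild-type Oct4 (Oct4-SK) or Oct4defSox2 (Oct4defSox2-SK), an Oct4 with point mutations at its Sox2 interface. They were cultured in iCD1, a chemically defined medium, and day 0 was the day of the change into it. The same Oct4 antibody was used for both proteins, and each group was 1 library, so there were no replicates. Transduced cultures are mixtures of cells, the retroviral factors are expressed from a viral promoter, and fewer bound cells cannot be told apart from weaker binding per cell.

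Oct4 (gene Pou5f1) is a POU factor with a pair of DNA-binding domains, and alone it reads the octamer ATGCAAAT. With Sox2 it forms a heterodimer on the composite SoxOct motif, in which a Sox site lies directly beside a POU site, an arrangement known from enhancers of pluripotency genes such as Pou5f1 and Sox2 themselves. A pair of POU proteins can instead form a homodimer on MORE, a palindromic or nearly palindromic element that needs no Sox partner. The comparison asks which sites Oct4 still occupies when its Sox2 interface is mutated. The paper reports similar mRNA levels of the introduced POU factors. It also reports that their protein fell moderately over the days, especially for Oct6 and Oct4defSox2. Endogenous Oct4 was activated only by the Oct4-SK cocktail, according to the paper. The part of protein amount and source in the differences between the lists was not tested.

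Single sites serve as examples of the motifs, and they were picked for their motif and class after their values were seen. The first set shows 6 windows with an exact MORE, in capitals, given as the plus strand of mm10 (GRCm38) 5′ to 3′ and named by the nearest coding gene. They are an intron of Sik3 (chr9:46083753-46083903), an intron of Lemd1 (chr1:132222297-132222447), intergenic sequence far from Nr2f2 (chr7:69781195-69781345), an intron of Cct8 (chr16:87487901-87488051), and intergenic sequence far from Hivep2 (chr10:14155489-14155639) and Plxnc1 (chr10:95035462-95035612).
Sik3, shared: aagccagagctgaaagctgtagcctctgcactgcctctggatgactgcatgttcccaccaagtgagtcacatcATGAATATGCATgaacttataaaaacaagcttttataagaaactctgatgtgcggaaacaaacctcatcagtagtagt
Lemd1, shared: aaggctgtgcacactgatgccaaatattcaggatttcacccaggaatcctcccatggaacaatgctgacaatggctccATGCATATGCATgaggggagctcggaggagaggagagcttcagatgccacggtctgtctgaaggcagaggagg
Nr2f2, shared: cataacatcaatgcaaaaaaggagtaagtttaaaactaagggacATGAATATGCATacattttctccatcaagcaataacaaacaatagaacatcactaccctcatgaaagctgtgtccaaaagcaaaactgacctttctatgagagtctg
Cct8, Oct4-only: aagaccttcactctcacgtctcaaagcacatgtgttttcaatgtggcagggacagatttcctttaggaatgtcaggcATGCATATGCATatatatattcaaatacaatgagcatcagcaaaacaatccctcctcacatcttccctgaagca
Hivep2, Oct4defSox2-only: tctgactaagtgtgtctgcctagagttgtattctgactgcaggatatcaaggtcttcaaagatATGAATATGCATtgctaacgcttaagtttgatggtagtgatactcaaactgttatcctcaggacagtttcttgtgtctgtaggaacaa
Plxnc1, Oct4defSox2-only: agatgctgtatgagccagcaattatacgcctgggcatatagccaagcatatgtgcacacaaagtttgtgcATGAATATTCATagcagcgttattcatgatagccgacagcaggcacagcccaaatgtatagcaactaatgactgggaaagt
The Sik3, Nr2f2 and Hivep2 windows hold the same 12 bases, and so do the Lemd1 and Cct8 windows, although each of these sets spans different classes of site.

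The second set shows 5 sites bound by Oct4 and not by Oct4defSox2 at day 5, with the SoxOct match in capitals. They lie 1973 bp upstream of the Pou5f1 start (chr17:35503970-35504120), 3643 bp downstream of the Sox2 start (chr3:34653973-34654123), 6669 bp downstream of the Sox21 start (chr14:118230286-118230436), and in introns of Shc3 (chr13:51491763-51491913) and Eya4 (chr10:23198485-23198635). The Pou5f1, Shc3 and Eya4 matches are on the minus strand, so that the capitals read as their reverse complement.
Pou5f1, Oct4-only: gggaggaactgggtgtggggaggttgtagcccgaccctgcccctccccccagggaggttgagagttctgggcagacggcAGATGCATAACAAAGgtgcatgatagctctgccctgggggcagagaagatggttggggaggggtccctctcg
Sox2, Oct4-only: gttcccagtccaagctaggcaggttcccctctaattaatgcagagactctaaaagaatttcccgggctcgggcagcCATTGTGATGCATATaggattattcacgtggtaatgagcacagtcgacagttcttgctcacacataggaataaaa
Sox21, Oct4-only: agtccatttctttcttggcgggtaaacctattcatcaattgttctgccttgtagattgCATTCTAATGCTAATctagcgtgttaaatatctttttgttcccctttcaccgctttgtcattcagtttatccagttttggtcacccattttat
Shc3, Oct4-only: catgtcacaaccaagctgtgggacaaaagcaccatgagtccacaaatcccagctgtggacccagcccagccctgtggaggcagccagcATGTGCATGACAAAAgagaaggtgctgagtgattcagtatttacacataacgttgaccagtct
Eya4, Oct4-only: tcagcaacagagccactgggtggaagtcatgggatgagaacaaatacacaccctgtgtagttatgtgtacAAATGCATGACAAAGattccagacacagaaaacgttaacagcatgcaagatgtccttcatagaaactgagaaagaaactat
The Pou5f1 stretch lies at its distal enhancer and the Sox2 stretch at a downstream enhancer, both long studied as Oct4 and Sox2 targets. The matches at Sox2 and Sox21 differed from the SoxOct consensus at 1 position and those at Pou5f1, Shc3 and Eya4 at 2 positions. If the reporter of OG2 cells holds the Pou5f1 stretch too, reads from the reporter and from the gene cannot be told apart.

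Of the 4846 Oct4 sites, 514 were shared, 10.6% (Wilson 95% interval 9.77 to 11.5). These were 49.7% (46.7 to 52.8) of the 1034 Oct4defSox2 sites. The other 4332 Oct4 sites are called Oct4-only and the other 520 Oct4defSox2 sites Oct4defSox2-only. Shared summits lay close together, with a median distance of 20 bp, and 134 pairs were within 10 bp. Widening the distance to 1000 bp raised the share of Oct4defSox2 sites near an Oct4 summit only to 52.1% (49.1 to 55.2), and most Oct4defSox2-only sites had no Oct4 summit within that distance. All intervals cover counting error among sites. They compare 2 libraries and not 2 conditions, and no p-value was computed.

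The lists differ in length, so sharing was also measured at equal numbers. With the 1034 top-ranked summits of each library, 304 were shared, 29.4% (26.7 to 32.2). The share was 40.0% (27.6 to 53.8) for the top 50, 39.5% (33.0 to 46.4) for the top 200 and 35.8% (31.7 to 40.1) for the top 500. It thus stayed between 29.4% and 40.0% at every number tried, and most of the strongest sites of one protein were not among as many of the other. Against the full lists the picture was different. Of the top 50 Oct4defSox2 summits, 98.0% had an Oct4 summit somewhere in its list, and of the top 50 Oct4 summits 76.0% had an Oct4defSox2 summit. In the lowest score quartile of each list these shares were 15.8% (11.9 to 20.8) for Oct4defSox2 and 2.06% (1.40 to 3.03) for Oct4.

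**Figure D1:**
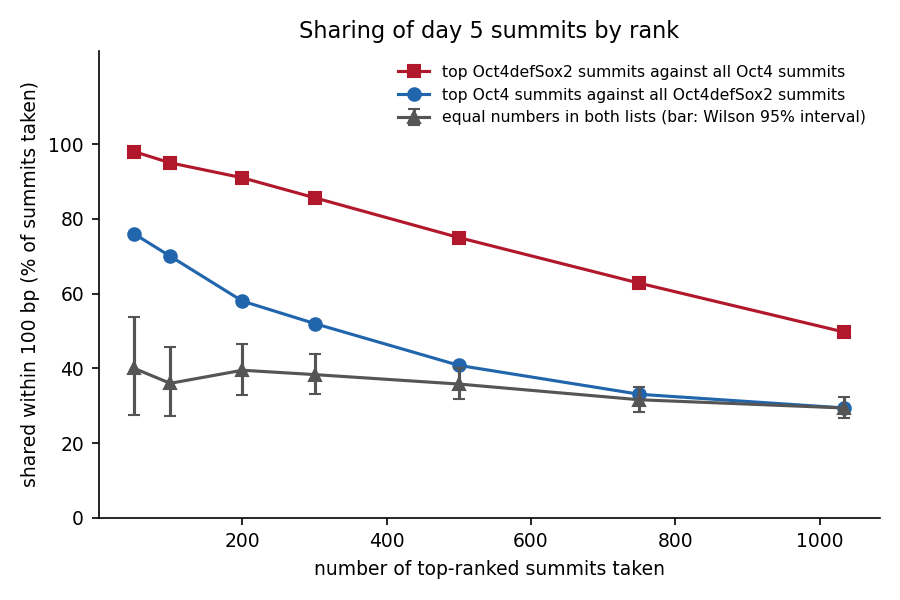
Percentage of summits shared within 100 bp against the number of top-ranked day 5 summits taken, for equal numbers in both lists (triangles, with Wilson 95% intervals) and for the top summits of one list against the whole of the other (circles and squares). The equal-number curve stays between 29.4% and 40.0%, while the top 50 Oct4defSox2 summits reach 98.0% against the full Oct4 list.

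The sites at the top of both lists were MORE sites. The score of a summit is the −log10 of the peak caller's p-value in its own library, so ranks are compared rather than scores. All 8 shared sites with the best mean rank held MORE, against 29.2% of all shared sites, and none held SoxOct, against 8.95%. None had a Sox2 summit in Oct4-SK or Oct4defSox2-SK cells at day 1 or day 5, where each Sox2 library was at only 2.44% to 5.37% of shared sites with MORE and no SoxOct. Their Oct4 scores ran from 135 to 285 and their Oct4defSox2 scores from 127 to 292. The first was the intronic Sik3 site, in a gene for a salt-inducible kinase, with rank 5 in the Oct4 list (score 208) and rank 1 in the Oct4defSox2 list (292). It was followed by a site 75 bp upstream of the start of Rnf169, a ubiquitin ligase gene (259 and 290), and by the Lemd1 site, which had rank 1 for Oct4 (285) and rank 4 for Oct4defSox2 (218). Others lay 794 bp upstream of the start of Gabarapl2, an autophagy gene (202 and 260), and 24 bp upstream of a start of Kdm2b, a histone demethylase gene (135 and 139). The rest were intronic, in Crlf2, Macrod1 and Col15a1. All 8 also had summits of Oct4 at days 1 and 7 and of Oct4defSox2 at day 1, which were at 80.5%, 54.1% and 97.6% of the shared sites in the highest quartile of the Oct4 score.

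Over all sites the motif content of the classes differed in the same way. MORE or its variant with a spacer base (MORE+1) lay within 100 bp of 42.0% (37.8 to 46.3) of shared summits, 9.40% (8.56 to 10.3) of Oct4-only summits and 15.8% (12.9 to 19.1) of Oct4defSox2-only summits. In windows 2 kb to either side the shares were 0.778%, 0.600% and 0.769%. The shared sites thus exceeded the Oct4-only sites by 32.6 percentage points (Newcombe 95% interval 28.3 to 37.0) and the Oct4defSox2-only sites by 26.3 points (20.9 to 31.4). With exact matches alone these differences were 14.1 points (11.1 to 17.6) and 10.4 points (6.60 to 14.2), and the latter was 11.9 points (2.51 to 20.9) with scores of at least 10. SoxOct had another distribution. It was found at 20.9% (19.7 to 22.1) of Oct4-only, 8.95% (6.78 to 11.7) of shared and 3.85% (2.50 to 5.87) of Oct4defSox2-only summits, against flanking shares of 1.11%, 0.875% and 1.44%. Oct4-only sites exceeded shared sites by 11.9 points (8.90 to 14.4), by 19.5 points with scores of at least 10 and by 24.3 points with equal numbers of top-ranked summits. Among Oct4 sites in the highest score quartile, SoxOct was at 34.7% of Oct4-only and 11.5% of shared sites, and MORE at 15.8% and 48.5%, so neither contrast rested on the weak sites alone. With a stricter match, of at most 1 mismatch, the SoxOct difference over all sites was 1.22 points (−0.793 to 2.62) and no longer past counting error.

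**Figure D2:**
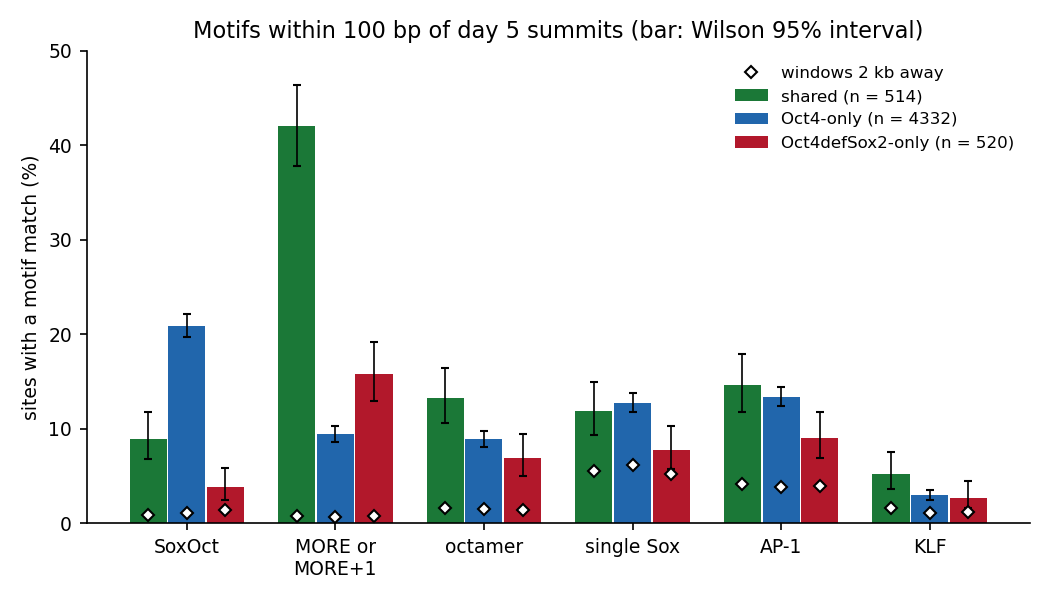
Percentage of sites with a motif match within 100 bp of the summit, for shared, Oct4-only and Oct4defSox2-only day 5 sites (bars, with Wilson 95% intervals), and for windows 2 kb to either side (diamonds). MORE or MORE+1 marks 42.0% of shared sites, and SoxOct marks 20.9% of Oct4-only sites.

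Sites without any of SoxOct, MORE, MORE+1 or an exact octamer were common in every class. They made up 44.4% (40.1 to 48.7) of shared, 66.8% (65.3 to 68.1) of Oct4-only and 76.7% (72.9 to 80.2) of Oct4defSox2-only sites, and 96.8% to 97.0% of flanking windows. Oct4defSox2-only sites exceeded shared sites by 32.4 points (26.6 to 37.8), by 17.9 points (8.36 to 27.0) with scores of at least 10 and by 17.9 points (12.9 to 22.7) with 1 mismatch fewer. None of the other motifs searched was more frequent there than at Oct4-only sites. The single Sox motif (CCWTTGTB) was at 7.69% of Oct4defSox2-only and 12.7% of Oct4-only sites, a difference of −5.05 points (−7.29 to −2.27). With scores of at least 10 it was −0.771 points (−5.45 to 5.59) and no longer past counting error. The AP-1 motif (TGASTCA), read by Fos and Jun factors, was at 9.04% of Oct4defSox2-only sites against 13.4% of Oct4-only and 14.6% of shared sites. The KLF motif (GGGYGKGGC) was at 2.69%, 2.95% and 5.25% in the same order. PORE, a further POU homodimer element, was at 0.192%, 1.62% and 0.778%, against flanking shares of 1.83%, 0.866% and 0.973%, so it was near or below its surroundings outside the Oct4-only sites. Flanking shares for Sox, AP-1 and KLF lay between 1.08% and 6.12% over the classes.

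Within the Oct4 list, the motif under a summit went with whether Oct4defSox2 was found there. Oct4defSox2 bound 35.7% (31.8 to 39.7) of the 575 Oct4 sites with MORE and no SoxOct, and 3.88% (2.80 to 5.35) of the 902 with SoxOct and no MORE, a difference of 31.8 points (27.7 to 35.9). Over all Oct4 sites the share was 10.6%, so SoxOct sites fell below it and MORE sites above. Sites with an octamer alone were bound in 17.4% (12.8 to 23.3) of 201 cases, sites with both SoxOct and MORE in 22.9% (13.3 to 36.5) of 48, and sites without a POU motif in 7.31% (6.45 to 8.27) of 3120.

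The order held at every level of the Oct4 score. In the quartile of Oct4 sites with the highest scores, Oct4defSox2 was found at 55.6% (49.7 to 61.3) of those with MORE and at 9.40% (6.67 to 13.1) of those with SoxOct. In the second quartile the shares were 19.2% and 1.54%, in the third 15.0% and 0.478%, and in the lowest 12.5% and 0%. The difference was past counting error in each quartile, from 46.2 points (39.2 to 52.5) in the first to 12.5 points (4.75 to 26.1) in the last. In the first 2 quartiles the SoxOct shares also lay below those of sites without any POU motif, 23.1% (19.7 to 26.8) and 7.95% (6.20 to 10.1), with intervals that did not overlap. In the lowest quartile, 0 of 115 SoxOct sites were bound, with a Wilson upper bound of 3.23%. The limit of 3 counts set for a count of 0 allows a share of up to 2.61%, and neither limit covers more than counting error.

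**Figure D3:**
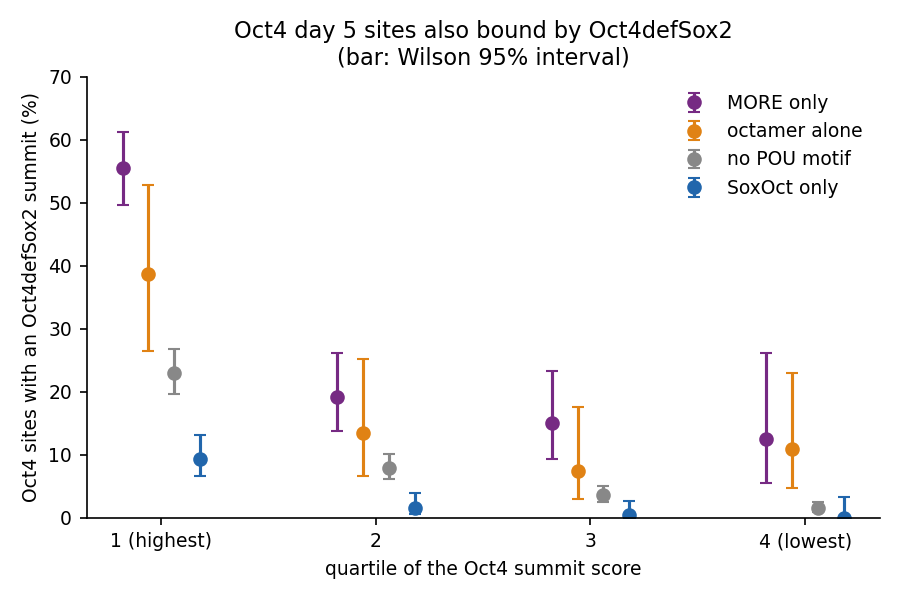
Percentage of Oct4 day 5 sites that also have an Oct4defSox2 summit (vertical axis) by quartile of the Oct4 score, for sites with MORE only, an octamer alone, no POU motif or SoxOct only (points, with Wilson 95% intervals). MORE sites are highest in every quartile, from 55.6% to 12.5%, and SoxOct sites lowest, from 9.40% to 0%.

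The closeness of the MORE match went with binding by Oct4defSox2. Oct4 sites whose best MORE match had no mismatch were bound by Oct4defSox2 in 53.7% (45.3 to 61.8) of 136 cases, and those with 1 mismatch in 26.1% (21.1 to 31.8) of 257. For SoxOct, sites with 0, 1 and 2 mismatches were bound in 7.69% (2.14 to 24.1), 6.78% (3.92 to 11.5) and 3.00% (1.97 to 4.55) of cases. These shares also fell with more mismatches. Their intervals overlap, but the differences between them were not computed. The exact MORE matches, here with the sites that also held SoxOct, come in 3 forms once the strands are merged, and 1 site held several. The form ATGAATATGCAT was bound at 59.8% (49.6 to 69.2) of 92 Oct4 sites and the palindrome ATGAATATTCAT at 64.7% (41.3 to 82.7) of 17. The palindrome ATGCATATGCAT, the form under the Lemd1 and Cct8 summits, was bound at 30.3% (17.4 to 47.3) of 33. It fell short of the first form by 29.5 points (9.62 to 45.5) and of the second by 34.4 points (5.45 to 56.6). The median Oct4 score was also lower at this form, 11.9 against 15.2 and 19.9, and the part of the score in this difference was not tested. These comparisons of forms were chosen after the lists had been seen.

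Matches lay near the summits. At shared sites the median distance from summit to the best match was 17.5 bp for MORE and 13.5 bp for SoxOct. At Oct4-only sites it was 25.5 bp and 22.0 bp, and at Oct4defSox2-only sites 23.5 bp and 32.0 bp. The single Sox motif was farther off, at 41.0 to 53.0 bp, in all 3 classes.

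At the 514 shared sites the ranks of the 2 proteins followed each other loosely, with a Spearman correlation of scores of 0.484, given as a description of sites that share their libraries. The lists differ in length, so the shared sites were ranked among themselves, from 1 for the highest score in each library. The 35 SoxOct sites had a median rank of 158 by the Oct4 score and of 314 by the Oct4defSox2 score, and 30 of them ranked better by the Oct4 score. For the 205 MORE sites the medians were 213 and 188.5, and 93 ranked better by the Oct4 score, against 238 of all 514. SoxOct sites thus stood above MORE sites in the Oct4 library and below them in the Oct4defSox2 library. Both lists also define the shared sites, and 30 of these 35 SoxOct sites lay in the highest quartile of the Oct4 score. For the MORE sites it was 155 of 205. The order may thus come from the selection and is not a separate result. This ranking was chosen after the data had been seen. Single sites stood far apart in the full lists, where ranks run to 4846 for Oct4 and to 1034 for Oct4defSox2. The Nr2f2 window, 579323 bp from that gene's start, scored 117 for Oct4defSox2 (rank 14) and 4.78 for Oct4 (rank 4516), although Oct4 scored 67.1 there at day 1. In the other direction, an intronic Dok5 site without a POU motif scored 37.8 for Oct4 (rank 238) and 4.35 for Oct4defSox2 (rank 984). An intronic Zfp277 site with MORE did likewise, with 52.5 and 5.29.

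**Figure D4:**
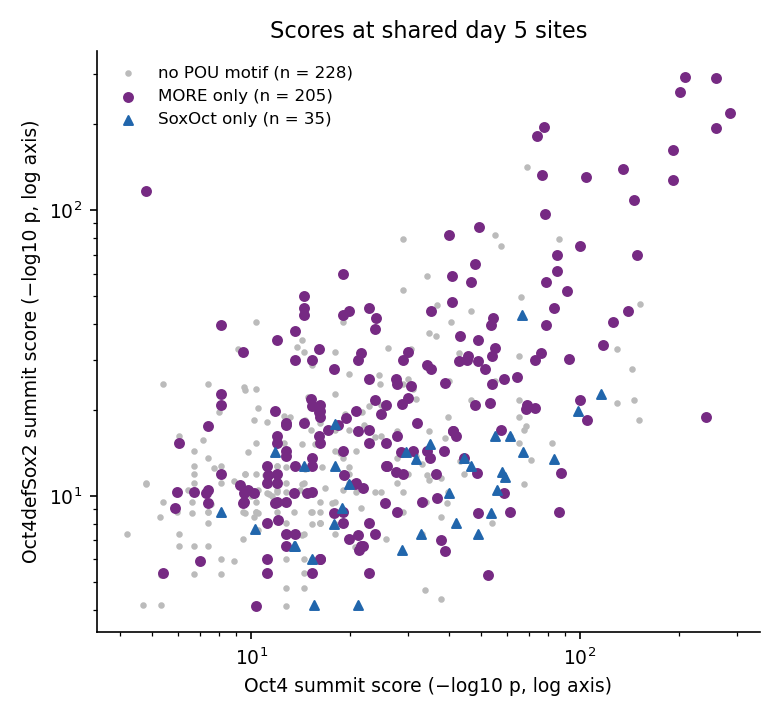
Scores of the shared day 5 sites in the Oct4 library (horizontal log axis) and in the Oct4defSox2 library (vertical log axis), both −log10 p, with symbols for MORE only (n = 205), SoxOct only (n = 35) and no POU motif (n = 228). Scores are not scaled between the libraries, so symbols compare along each axis: SoxOct sites lie farther right than MORE sites (median Oct4 scores 32.8 and 23.8) and lower (median ranks 314 and 188.5 by the Oct4defSox2 score).

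The strongest Oct4-only sites were of mixed motif content. Of the 6 with the highest score, 4 held no POU motif, near the 66.8% of all Oct4-only sites and against 47.7% of those in the highest score quartile, 1 held an octamer (an intron of Add3, score 140) and 1 held SoxOct (the Shc3 site, 102). The highest was an intronic Stxbp4 site, with a score of 159 and rank 10 of 4846. The next lay in the coding exon of Sox9, a Sox factor of cartilage and many progenitors, 677 bp from its start, with 143. Of these 6 sites, 5 had an Oct4defSox2 summit at day 1, close to the 78.1% of Oct4-only sites in the highest score quartile. The top 4 Oct4-only sites with SoxOct lay near Shc3 (102), H2al2a (78.2), Csf1r (76.9) and Eya4 (73.0). All 4 had Oct4 summits at days 1 and 7 and an Oct4defSox2 summit at day 1. At day 5, 3 of the 4 had a Sox2 summit in Oct4-SK cells. In Oct4defSox2-SK cells 1 of them had one at day 5, the Shc3 site (12.4). Over all Oct4-only sites with SoxOct and no MORE these shares were 49.7%, 48.8%, 63.6%, 12.7% and 6.81%, in the same order. For Oct4-only sites of any motif in the highest score quartile they were 73.7%, 54.1%, 78.1%, 14.9% and 7.89%. The top 3 Oct4-only sites with MORE lay 38379 bp from the Klf15 start (79.0), in an intron of Cct8 (69.0) and in an intron of Dner (66.4), and none of them had a Sox2 summit in Oct4-SK or Oct4defSox2-SK cells, where each Sox2 library was at only 0.811% to 4.86% of Oct4-only sites with MORE and no SoxOct.

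The Oct4defSox2-only sites had lower scores than the shared sites. Their median score was 7.19, against 14.2 at shared sites in the same library, and the highest was 46.6. That highest site was the intergenic Hivep2 window (rank 43 of 1034), with an exact MORE. An exact MORE also lay under the Plxnc1 window, with 35.2. The sites in introns of Tmem260 (39.4) and Fbxo34 (35.0) held no POU motif. A site far from 4930474N05Rik (33.0) held SoxOct with 2 mismatches, and one far from Nmbr (28.7) held MORE with 1 mismatch. All 6 had an Oct4defSox2 summit at day 1, and the Hivep2 and Plxnc1 sites had an Oct4 summit at day 1 as well, with scores of 17.6 and 24.1. Over all Oct4defSox2-only sites these shares were 45.0% for Oct4defSox2 and 9.81% for Oct4 at day 1.

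The other libraries show how the classes stood at day 1 and day 7. At day 1 Oct4defSox2 had a summit at 95.5% (93.4 to 97.0) of shared sites, 49.98% (48.5 to 51.5) of Oct4-only sites and 45.0% (40.8 to 49.3) of Oct4defSox2-only sites. Its day 1 list was much longer, with 31060 summits. Oct4 at day 1, with 8199, was found at 67.7% (63.5 to 71.6), 38.4% (36.9 to 39.8) and 9.81% (7.54 to 12.7). Oct4-only sites were thus about evenly split between those with and those without an Oct4defSox2 summit at day 1. Of the 4332, both proteins were found at 1317 at day 1, Oct4defSox2 alone at 848, Oct4 alone at 345 and neither at 1822. Shared sites exceeded Oct4-only sites by 29.3 points (24.9 to 33.5) for Oct4 at day 1 and by 45.5 points (42.9 to 47.6) for Oct4defSox2 at day 1. With equal numbers of top-ranked summits these were 6.35 points (0.799 to 11.4) and 18.8 points (15.3 to 22.1).

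Earlier binding by Oct4defSox2 extended to SoxOct sites. Of the 867 Oct4-only sites with SoxOct and no MORE, 63.6% (60.3 to 66.7) had an Oct4defSox2 summit at day 1, and 67.3% (62.4 to 71.9) of the 370 with MORE and no SoxOct did. Sites without a POU motif were at 42.9% (41.2 to 44.8). Oct4 itself was at 49.7% (46.4 to 53.0) of the SoxOct sites, 54.1% (49.0 to 59.1) of the MORE sites and 33.0% (31.3 to 34.8) of those without a POU motif at day 1. At day 7 Oct4 was found at 48.8% (45.5 to 52.1) of the SoxOct sites, 17.8% (14.3 to 22.1) of the MORE sites and 16.4% (15.1 to 17.8) of those without a POU motif. Among shared sites, Oct4 at day 7 was at 25 of 35 SoxOct sites (71.4%, 54.9 to 83.7) and 89 of 205 MORE sites (43.4%, 36.8 to 50.3).

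**Figure D5:**
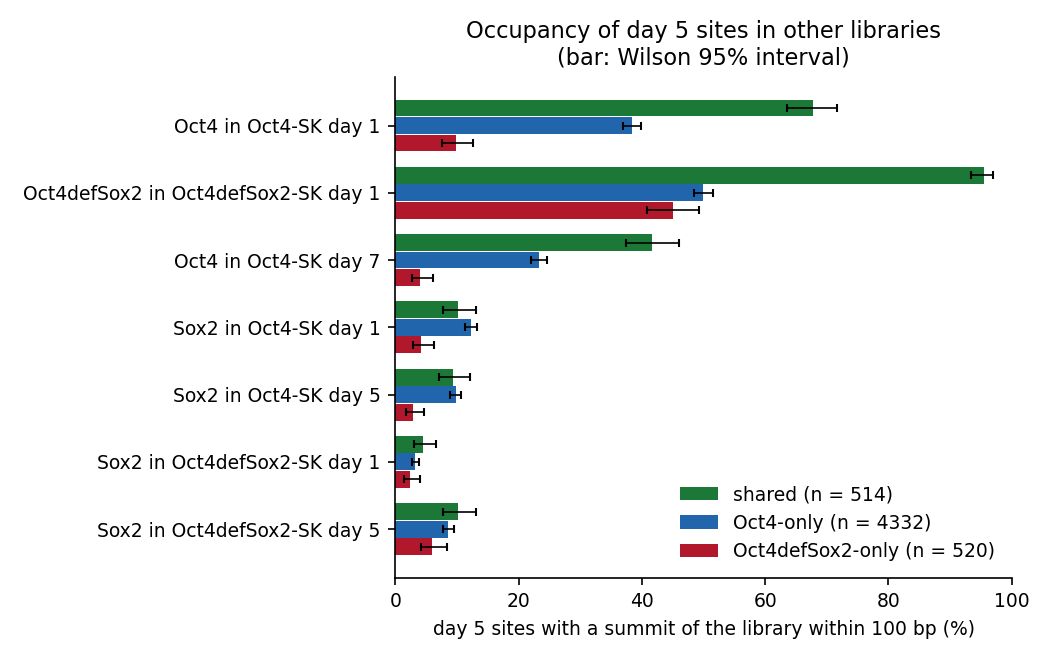
Percentage of shared, Oct4-only and Oct4defSox2-only day 5 sites with a summit of another library within 100 bp (bars, with Wilson 95% intervals). Oct4defSox2 at day 1 covers 95.5% of shared and 49.98% of Oct4-only sites, and each of the 4 Sox2 libraries covers at most 12.3% of any class.

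Shared sites have higher scores, so these differences were also read within score quartiles. In the quartile of highest Oct4 score, Oct4 at day 7 was at 54.1% of 338 shared and 54.1% of 874 Oct4-only sites, a difference of 0.0230 points (−6.23 to 6.22), and in the second quartile the difference was −5.43 points (−12.9 to 3.93). Over all sites the difference had been 18.4 points (14.0 to 22.9), and with equal numbers of top-ranked summits it was −0.709 points (−7.36 to 5.86). The difference in day 7 occupancy was therefore not seen between sites of like rank when all motifs were pooled. The classes differ in motif at like rank, and motif and quartile were not combined here. Without quartiles, Oct4 at day 7 was at 71.4% of shared and 48.8% of Oct4-only SoxOct sites. For MORE sites the shares were 43.4% and 17.8%. For Oct4defSox2 at day 1 the difference held at 19.5 points (16.0 to 22.6) in the first quartile and 37.4 points (30.4 to 41.7) in the second. For Oct4 at day 1 it was 6.79 points (1.43 to 11.7) and 12.7 points (2.48 to 22.3), and in the lower 2 quartiles it was not past counting error.

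Sox2 had a summit within 100 bp of few of these sites, and sites without one may hold Sox2 below the peak caller's threshold. In Oct4-SK cells at day 5 it was at 9.79% (8.94 to 10.7) of Oct4-only, 9.34% (7.12 to 12.2) of shared and 2.88% (1.76 to 4.70) of Oct4defSox2-only sites. In Oct4defSox2-SK cells at day 5 it was at 8.56% (7.77 to 9.43), 10.1% (7.80 to 13.0) and 5.96% (4.23 to 8.34). The Sox2 libraries differ in length, with 5793 summits in Oct4-SK and 21551 in Oct4defSox2-SK cells. At Oct4-only sites Oct4-SK exceeded Oct4defSox2-SK by 1.22 points (paired Newcombe 95% interval 0.237 to 2.21). That difference turned to −0.302 points (−1.42 to 0.821) with a sharing distance of 250 bp. It rose to 8.08 points (5.43 to 10.8) with equal numbers of top-ranked Oct4 and Oct4defSox2 summits, the Sox2 lists being kept whole. At shared sites it was −0.778 points (−3.72 to 2.14), which was not past counting error, but with a sharing distance of 250 bp it was −5.60 points (−9.02 to −2.22) and past it.

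Sox2 was then read by motif. At Oct4-only sites with SoxOct and no MORE, Sox2 at day 5 was at 12.7% in Oct4-SK cells, 5.88 points (3.63 to 8.22) above the 6.81% in Oct4defSox2-SK cells. At day 1 it was at 15.3% and 1.73%, and the difference was 13.6 points (11.3 to 16.1). At Oct4-only sites without a POU motif the day 5 shares were 10.2% and 10.4%, and the difference was −0.242 points (−1.51 to 1.03), while at day 1 the shares there were 12.5% and 3.98% and the difference was 8.51 points (7.31 to 9.75). Oct4-only sites with MORE and no SoxOct had a difference of 4.05 points (1.77 to 6.77) at day 1 and of 2.16 points (0.0592 to 4.56) at day 5. The day 1 Sox2 lists held 15219 summits in Oct4-SK and 5793 in Oct4defSox2-SK cells, so that the longer list was that of Oct4-SK at day 1 and that of Oct4defSox2-SK at day 5. The 35 shared SoxOct sites had more Sox2, at 13 of them in Oct4-SK cells (37.1%) and at 6 in Oct4defSox2-SK cells (17.1%) at day 5, and the interval of the difference was 5.38 to 34.2 points. At the 205 shared MORE sites Sox2 was at 3.90% and 5.37%, a difference of −1.46 points (−5.87 to 2.82).

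Most sites of every class were intronic or intergenic. Intronic summits made up 39.5% (35.4 to 43.8) of shared, 45.4% (43.9 to 46.8) of Oct4-only and 40.4% (36.3 to 44.7) of Oct4defSox2-only sites. Intergenic summits made up 58.4% (54.1 to 62.5) of shared, 50.7% (49.2 to 52.2) of Oct4-only and 56.2% (51.9 to 60.4) of Oct4defSox2-only sites, so the intervals of shared and Oct4-only sites did not overlap in either kind. Within 1 kb of an annotated start lay 12.1%, 9.51% and 9.04%. The promoter difference between Oct4defSox2-only and Oct4-only sites was −0.472 points (−2.83 to 2.43), and it turned to 5.78 points (1.22 to 12.1) among summits with a score of at least 10. Median GC content was 41.8%, 42.3% and 41.3%. The summit base was repeat-masked at 24.7% (21.2 to 28.6) of shared sites, against 824 of 4332 Oct4-only sites, a difference of 5.69 points with an upper bound of 9.76 and a lower bound above 0.

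Genes of the pluripotency network were then inspected through all summits within 50 kb of their starts. In the genome, 19.9% of 21911 coding genes had an Oct4 summit this near and 5.12% an Oct4defSox2 summit. Of 25 naive pluripotency genes, 9 had an Oct4 summit (36.0%) and 2 an Oct4defSox2 summit (8.00%), and both of these, at Tet1 and Tet2, were shared. The Tet2 summit, at the start of this gene for a DNA demethylating enzyme, scored 74.2 for Oct4 and 183 for Oct4defSox2 and held MORE. The Tet1 summit, 14635 bp into this related gene, scored 14.3 and 35.1 and held no POU motif. Oct4-only summits lay near Pou5f1, Sox2, Tfcp2l1, Tbx3, Dppa3, Fgf4, Fbxo15 and, at another position, Tet1 (5.39).

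The Pou5f1 enhancer site scored 44.7, 26.2 and 155 for Oct4 at days 1, 5 and 7. Oct4defSox2 scored 48.5 there at day 1 and had no summit at day 5. Sox2 scored 7.34 and 13.6 there in Oct4-SK cells on days 1 and 5 and had no summit in Oct4defSox2-SK cells on either day. The Sox2 enhancer site was absent for Oct4 at day 1 and scored 9.80 at day 5 and 8.66 at day 7, while Oct4defSox2 scored 9.86 at day 1 and was absent at day 5. At Dppa3, a gene of germ cells and naive pluripotency, a SoxOct site 1709 bp upstream of the start scored 8.10 for Oct4 at day 5 and 36.3 at day 7, and Oct4defSox2 had no summit there at day 1 or day 5. A stronger Oct4-only site without SoxOct, 17798 bp from the Dppa3 start, scored 31.0 for Oct4 at day 5. Oct4defSox2 scored 28.6 at that site at day 1.

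The longer Oct4 list lies near more genes of any kind, so developmental and fibroblast genes were read against the same 19.9% and 5.12% of all coding genes. Of 19 Sox genes 7 had an Oct4 summit (36.8%) and 3 an Oct4defSox2 summit (15.8%), and sites near Sox9 and Sox10 were shared. The Sox21 site scored 53.9 for Oct4 at day 5 and had no Oct4defSox2 summit then, although Oct4defSox2 had scored 222 there at day 1. Sox2 scored 72.7 and 81.7 there in Oct4-SK cells on days 1 and 5, and in Oct4defSox2-SK cells it scored 87.0 at day 1 and had no summit at day 5. A shared SoxOct site 29047 bp from the Sox9 start scored 59.2 for Oct4 and 11.6 for Oct4defSox2. Zic1, a neural progenitor factor, had an Oct4defSox2-only site with MORE 9953 bp from its start (12.8), and Sox14 one without a POU motif (6.01). Of 14 neural progenitor genes 3 had an Oct4 summit (21.4%, near the share of all coding genes) and 2 an Oct4defSox2 summit (14.3%, 4.01 to 39.9), with Hes5, a Notch target, shared (16.8 and 10.7). Of the 15 POU genes 3 had an Oct4 and 1 an Oct4defSox2 summit (6.67%), also near the shares of all coding genes, with a shared site at a Pou6f1 start (10.4 and 23.7).

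Of 20 mesenchymal genes 9 had an Oct4 summit (45.0%, 25.8 to 65.8), among them Twist1, Snai1 and Zeb2, transcription factors of the mesenchymal state. Col1a2 alone had an Oct4defSox2 summit (5.00%, near the share of all coding genes), at another position (6.73), and no site near these genes was shared, while shared sites lay near 2.76% of all coding genes. Of 18 epithelial genes Dsp and Rab25 had Oct4 summits (11.1%) and none an Oct4defSox2 summit. Of 11 AP-1 genes Fosl2, Junb and Jund had Oct4 summits, and Jund, at its start, was shared (28.9 and 23.7). Among 11 genes of primitive endoderm and trophectoderm, Cdx2 had an Oct4 summit (6.61). These lists are small, and nearness to a start does not show that a site acts on the gene.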

How the data were processed

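The report covers 2 of the 13 ChIP-seq libraries with deposited summit lists, against the others where named. The authors aligned reads to mm10 with Bowtie2 2.2.5 and called peaks in each library with MACS2. The deposited score of a summit is the −log10 of its p-value, which is not scaled between libraries. Read depth was not used here, and the summit count was the measure of yield. The lowest score was 4.10 in the Oct4 and 4.12 in the Oct4defSox2 list, and the median 9.58 and 9.54. The 12 summits off chromosomes 1 to 19, X and Y were left out. Samples were grouped by title.

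Motifs were searched on both strands as consensus strings within 100 bp of a summit. SoxOct was allowed 2 mismatches, MORE and MORE+1 1 mismatch, PORE 2 and the octamer and other motifs 0. Matches of different motifs may overlap. A promoter lay within 1 kb of a GENCODE M21 start. Sequences are from RefSeq GRCm38. Shares carry Wilson and differences Newcombe intervals, computed in Python 3.11.15 with numpy 2.4.6 and pandas 2.3.3, and the procedure was tested on simulated data. Members, lists and comparisons were chosen with earlier results of these data known. The named sites are the 8 shared sites with the best mean rank, the 6 highest-scoring sites of either exclusive class, the 4 Oct4-only SoxOct and 3 Oct4-only MORE sites with the highest score, the 3 shared sites with the largest rank difference in each direction, and summits near listed genes. The sites with printed sequence were picked from these after their values were seen. The alternatives were other sharing distances, a score minimum, equal numbers, 1 summit per peak, omission of sites where libraries of all 3 antibodies had summits, other motif matches and windows, and a promoter distance of 5 kb.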

Additional observations from a re-analysis of the deposited data

How the results depend on the processing

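Of 101 alternative values computed for 14 results, 85 kept their direction and their side of the threshold, or, for the shares of shared sites, stayed within the counting interval. Of the others, 7 turned direction, 2 were no longer past counting error, 1 came to be past it and 6 shares moved out of the interval. The share of Oct4 sites that were shared was 8.98% at 50 bp, 14.6% with scores of at least 10 and 29.4% with equal numbers, and the share of Oct4defSox2 sites 42.1%, 68.1% and 29.4%. With 1 mismatch fewer the SoxOct difference between Oct4-only and shared sites was 1.22 points. With scores of at least 10, the single Sox difference was −0.771 points, no longer past counting error, and the promoter difference 5.78 points. The promoter difference was 2.05 points with equal numbers and 1.79 points at 5 kb. With equal numbers of Oct4 and Oct4defSox2 summits the day 7 Oct4 difference was −0.709 points and the Sox2 difference at shared sites 2.96 points. The Sox2 difference at shared sites was 0.230 points at 50 bp and −5.60 points at 250 bp, and at Oct4-only sites −0.302 points at 250 bp. The cause of these changes was not tested. MORE exceeded SoxOct sites in binding by Oct4defSox2 by 24.4 to 47.7 points over all 9 alternatives. Replicate libraries could not be paired because each group is 1 library, and the paired Sox2 intervals are paired over sites only. With 1 library per group, spread between cultures is unknown, and a summit missing from the shorter Oct4defSox2 list may have been below its threshold.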
